A study of Mus musculus with 8 samples.

Results

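The 10 amino acid transporter genes Slc7a3, Slc7a1, Slc7a5, Slc7a11, Slc3a2, Slc38a2, Slc1a4, Slc1a5, Slc6a9 and Slc7a6 were examined in hearts of mice with a deletion of Lrpprc in heart and skeletal muscle and in control hearts. They are 10 of the 50599 records in each library, and they were chosen by name with the difference between knockout and control already known, so that their differences are given here as a description and no test of them is used as evidence. Total RNA was sequenced from whole hearts of 8 male C57BL/6N mice at 12 weeks of age, 4 labelled wildtype and 4 labelled Lrpprc knockout. In the knockout animals both copies of a floxed Lrpprc gene were removed by a Cre that acts in heart and skeletal muscle. The promoter of this Cre is not given in the sources used here, and the study describes its control mice as carrying the floxed alleles without Cre. A whole heart also holds fibroblasts, vascular cells and blood cells, in which the gene is not a target of such a Cre, and in these bulk samples fewer cells of a type and less RNA per cell cannot be told apart.

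Amino acids cross the plasma membrane through solute carriers that differ in substrate and in the ions they couple to. Some of them work as single proteins, such as the arginine and lysine carriers of the SLC7 family, whereas others are light chains that reach the membrane only when joined to the heavy chain encoded by Slc3a2. Many of these genes are known targets of ATF4, a transcription factor made when the initiation factor eIF2 is phosphorylated, which occurs when amino acids run short or when mitochondria or the endoplasmic reticulum are under stress. ATF4 binds with C/EBP proteins to composite elements whose core is written TGATGNAA.

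The core was searched on both strands in RefSeq promoter windows (GRCm38.p6) that run from 250 bases before to 50 bases after an annotated start. Windows were found for 7 of the 10 transporters, the others being Slc7a3, Slc7a5 and Slc1a5. Those of Slc7a11 and Slc1a4 held a match, and those of Slc6a9, Slc7a1, Slc7a6, Slc38a2 and Slc3a2 held none. The Slc3a2 window, from 8713848 to 8714147 on chromosome 19, lies inside the gene at an internal start, and the start at 8723369 was not searched. The Slc6a9 windows also lie inside their gene, whose start at 117834506 on chromosome 4 was not searched. Counted by window, 2 of the 11 windows of these transporters held a match (18.2%). Of all 32851 windows, 3.97% held one, and 23 windows held at least 2. Among the further amino acid transporters compared below, 2 of 52 windows did (3.85%), and differences between these shares were not tested. The 30 bases around the matches are shown because these were the members with a match, and the capitals mark the matched letters.
Slc7a11: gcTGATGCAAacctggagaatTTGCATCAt
Slc1a4: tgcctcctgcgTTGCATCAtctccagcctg
The Slc7a11 stretch lies at chr3:50443652-50443681 on the minus strand, from 68 to 39 bases before the start, and it holds the core once on each strand. The Slc1a4 stretch lies at chr11:20332699-20332728 on the minus strand and spans the start, with the core on the opposite strand. Slc7a7, which is no member and whose fold change did not pass the threshold, also held matches. These are matches of letters in a short window, and elements in introns or further upstream were not searched.

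Total expected counts lay between 35218541 and 47743376 in the wildtype and between 38128303 and 45062420 in the knockout. Mitochondrial rRNA took 44.0% to 46.9% of them in the wildtype and 65.6% to 67.8% in the knockout, which bears on every value scaled by a library total. The normalised count of Lrpprc itself (chromosome 17 from 84705247 to 84790789, GRCm38) was 3665 ± 216 in the wildtype as against 577 ± 48.6 in the knockout (SD, n = 4 each), a log2 difference of -2.67 (SE 0.1). Cardiomyocyte markers dominated all libraries. Summed over 8 markers they ranged from 1113960 to 1222290 normalised counts in the wildtype and from 525100 to 679641 in the knockout, and 7 of the 8 were lower. Of 8 macrophage markers 7 were higher in the knockout, with sums of 2938 to 3785 in the wildtype and 3697 to 8143 in the knockout. The high sums came from knockout replicates 2 and 4, with 8143 and 6917, as against 4070 and 3697 in replicates 1 and 3. Of 6 fibroblast markers 2 were higher, and their sum was again largest in knockout replicates 2 and 4, with 24162 and 21146 as against 11956 to 14533 in the other 6 libraries. For 0 of 6 endothelial and 0 of 6 erythroid markers was the threshold passed. The erythroid sum was nevertheless uneven, with 45842 and 53868 in knockout replicates 2 and 3 as against 15234 and 22072 in replicates 1 and 4 and 20885 to 27056 in the wildtype. Of the 4 glial markers 1 was lower, of the 4 smooth muscle markers 2 were lower, and the 4 lymphocyte markers, which summed to at most 38.3 normalised counts in any library, did not pass it. Knockout replicate 3 had the lowest sum of 4 atrial markers, 1268 as against 3233 to 6012 in the other knockout libraries and 9980 to 12038 in the wildtype, and 2 of the 4 were lower. No marker was at 0 in all libraries.

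All 10 transporters had a higher mean in the knockout. In the fit across all records 10 of 10 passed the threshold of an adjusted p under 0.05 in the upward direction, where 18.2% of the 19959 records with an adjusted p did so, and since the members were chosen on this contrast nothing is read from that count. Slc1a5 did not pass it in 7 of 16 alternatives. In 9 of the 10 genes, all but Slc1a5, all 4 knockout libraries lay above all 4 wildtype libraries. This was the case for 19.8% of the 15754 records that averaged 10 normalised counts or more. The log2 fold changes of the 10 genes ran from 0.41 in Slc1a5 to 6.57 in Slc7a3 with a median of 2.54. Fold changes are given as log2 of knockout over wildtype with the standard error (SE) of the fit, and values per library follow the order of replicates 1 to 4. Normalised counts here are counts divided by a size factor and by the relative effective length of the gene in that library.

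**Figure D1:**
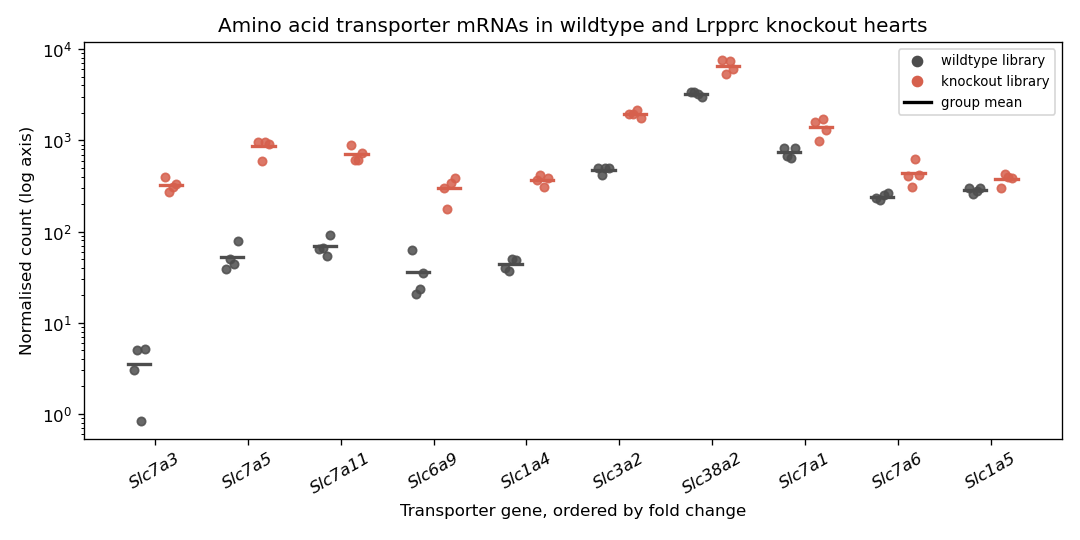
Normalised counts of the 10 transporters on a log axis, with 1 point per library, wildtype in grey and knockout in red, and a bar at each group mean. The groups are apart in 9 genes, from Slc7a3 with means of 3.5 and 328 to Slc7a6 with means of 241 and 439, and overlap in Slc1a5.

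Slc7a3 and Slc7a1 encode CAT3 and CAT1, carriers of arginine, lysine and ornithine. Slc7a3 (chromosome X from 101079210 to 101086020, minus strand) was close to absent from the wildtype hearts, with raw counts of 3, 3, 1 and 8 in replicates 1 to 4. In the knockout its raw counts lay between 254 and 381. Its normalised counts were 3.07, 4.99, 0.837 and 5.1 in the wildtype and 399 (replicate 1), 273, 309 and 330 in the knockout. Every knockout library therefore stood far above every wildtype library, and the spread within the knockout was small, with the highest library 1.46 times the lowest.

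The fitted log2 fold change of Slc7a3 was 6.57 (SE 0.419). Because the wildtype rests on 15 counts in all, for which counting error alone gives an exact 95% Poisson interval of 8.4 to 24.7, the size of the rise is poorly fixed. As counts per total, knockout over wildtype, the ratio was 82.9 with an exact 95% interval of 50.1 to 149, and it was 126 (60.8 to 313) when wildtype replicate 4, the library with 8 counts, was left out. Intervals of this kind cover counting error only.

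Slc7a1 (chromosome 5 from 148327410 to 148399904, minus strand) was already abundant in the control hearts. Its normalised counts were 818, 679, 634 and 833 in the wildtype and 1583, 997, 1719 and 1285 in the knockout. The groups did not overlap, but knockout replicate 2 stood only slightly above the highest wildtype library. The log2 fold change was 0.91 (SE 0.183), which is 1.88-fold.

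The make-up of the cationic carriers differed between the groups. TPM, which divides by transcript length and so allows genes to be compared, was summed over Slc7a1, Slc7a2 and Slc7a3 in each library. Slc7a3 made up 1.11% ± 0.677 of that sum in the wildtype as against 37.9% ± 3.38 in the knockout (SD, n = 4 each), with knockout libraries between 33.2% and 40.9%. Slc7a1 held 83.7% ± 1.11 (SD, n = 4) and 54.7% ± 6.2 (SD, n = 4). In expected counts, which are not divided by length, the share of Slc7a3 was 0.361% ± 0.216 and 18.7% ± 3.64 (SD, n = 4 each), so that the rise was smaller on that scale, by 18.4 as against 36.8 percentage points.

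Slc7a5, Slc7a6 and Slc7a11 encode light chains that pair with the heavy chain of Slc3a2. Slc7a5 is LAT1, which exchanges large neutral amino acids such as leucine, phenylalanine and tryptophan. The gene occupies 121881150 to 121907694 of chromosome 8 (minus strand). Its normalised counts were 38.9, 50.5, 44.4 and 78 in the wildtype and 961, 597, 970 and 904 in the knockout. The lowest knockout library was far above the highest wildtype library, and the log2 fold change of 4.02 (SE 0.236) corresponded to 16.2-fold. It was the second largest of the 10, except without the length offset, where Slc7a11 with 4.44 stood above Slc7a5 with 4.09.

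Slc7a11 is xCT, which takes up cystine in exchange for glutamate and so feeds glutathione synthesis. Its gene, whose promoter stretch with both cores is printed above, spans chromosome 3 from 49892526 to 50443614 on the minus strand. Normalised counts were 64.1, 66.3, 53.7 and 92.5 in the wildtype and 887, 611, 616 and 726 in the knockout, without overlap. The log2 fold change was 3.37 (SE 0.203), that is 10.4-fold.

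In Slc7a11 the length of the transcripts that RSEM assigned also differed between the groups. The effective length, the mean over transcripts weighted by their estimated abundance, was 4238, 3896, 3662 and 2496 bases in the wildtype and 7733, 7069, 6617 and 7568 bases in the knockout. All 4 knockout values were above all 4 wildtype values, and the ratio of the means was 2.03. Of 10447 records that averaged 100 normalised counts or more, 10 had a ratio of at least 1.5, and 2, Slc7a11 included, had one as large as this. GENCODE M21 lists 5 transcripts of Slc7a11, of 9223, 3162, 2677, 2419 and 481 spliced bases. The authors ran RSEM on an earlier GENCODE release, whose transcripts of this gene were not looked up. Raw counts rose from between 44.7 and 57.5 to between 702 and 1222, and the fold change without the length offset was 4.44 on the log2 scale. The wildtype lengths rest on about 50 counts per library, so they are less certain than those of the knockout. Another annotated gene, AC157548.1, matches Slc7a11 over 373 bases at 95.4% identity, and its reads were not counted apart in these libraries.

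**Figure D2:**
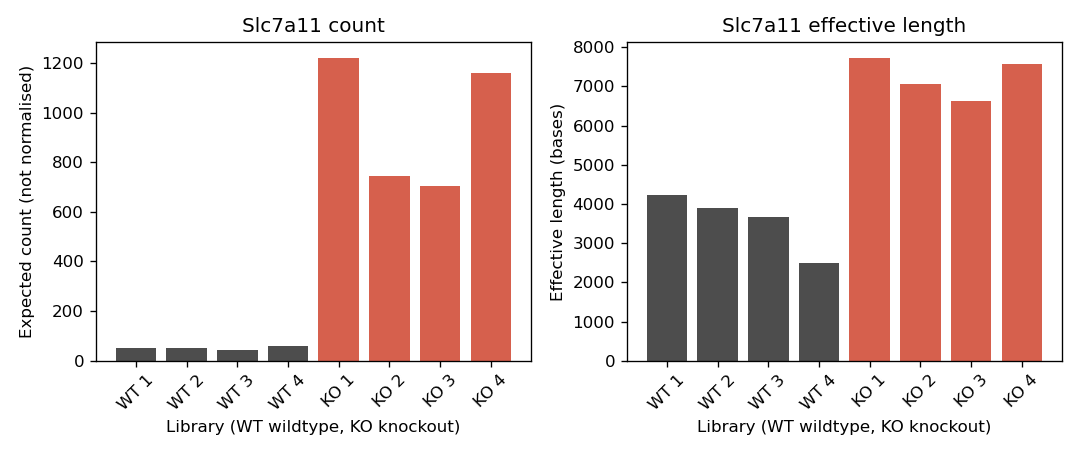
Expected counts of Slc7a11 without normalisation (left) and its effective length in bases (right), with 1 bar per library, wildtype in grey and knockout in red. The 4 knockout bars are higher than the 4 wildtype bars in both panels, with lengths of 6617 to 7733 as against 2496 to 4238 bases.

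Slc7a6 is y+LAT2, a light chain that exchanges cationic for neutral amino acids. The gene occupies 106168857 to 106198706 of chromosome 8 (plus strand). Normalised counts were 233, 220, 250 and 263 in the wildtype and 408, 312, 623 and 413 in the knockout. All knockout libraries were above the wildtype, with knockout replicate 3 highest and replicate 2 close to the wildtype range. The log2 fold change was 0.86 (SE 0.205).

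Slc3a2 is the common heavy chain, also known as CD98. The gene occupies 8706882 to 8723369 of chromosome 19 (minus strand). Its counts were the most even of the 10 in the knockout, at 1957, 1967, 2137 and 1773 in replicates 1 to 4, as against 503, 415, 496 and 503 in the wildtype. The groups were far apart, a log2 difference of 2.03 (SE 0.109), or 4.09-fold. Its effective length was 1891 ± 95.9 bases in the wildtype and 1689 ± 23.8 bases in the knockout (SD, n = 4 each), and without the length offset the log2 fold change was 1.87.

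The light chain pool was compared as TPM over Slc7a5, Slc7a6, Slc7a7, Slc7a8, Slc7a10 and Slc7a11. The sum was 5.72 ± 0.523 TPM in the wildtype as against 15.8 ± 2 TPM in the knockout (SD, n = 4 each). In the wildtype Slc7a6 held 43.3% ± 6.1 of the pool and Slc7a7 35.4% ± 5.7 (SD, n = 4 each), while Slc7a5 held 7.85% ± 2.14 and Slc7a11 6.53% ± 1.24. In the knockout Slc7a5 held 41.7% ± 3.55, Slc7a6 25.5% ± 5.51, Slc7a11 22.5% ± 3.45 and Slc7a7 7.67% ± 4.12 (SD, n = 4 each). For each of these genes the knockout libraries and the wildtype libraries did not overlap in share.

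The ratio of Slc3a2 TPM to this pool was 1.31 ± 0.208 in the wildtype as against 1.77 ± 0.293 in the knockout (SD, n = 4 each), with overlapping libraries. Its direction depended on the genes counted and on the unit. With Slc7a5, Slc7a6 and Slc7a11 alone it was 2.27 ± 0.241 and 1.98 ± 0.425, and with expected counts over all 6 light chains it was 1.01 ± 0.0842 and 0.775 ± 0.165 (SD, n = 4 each). No shift in the balance of heavy and light chain mRNA can therefore be read from these libraries.

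**Figure D3:**
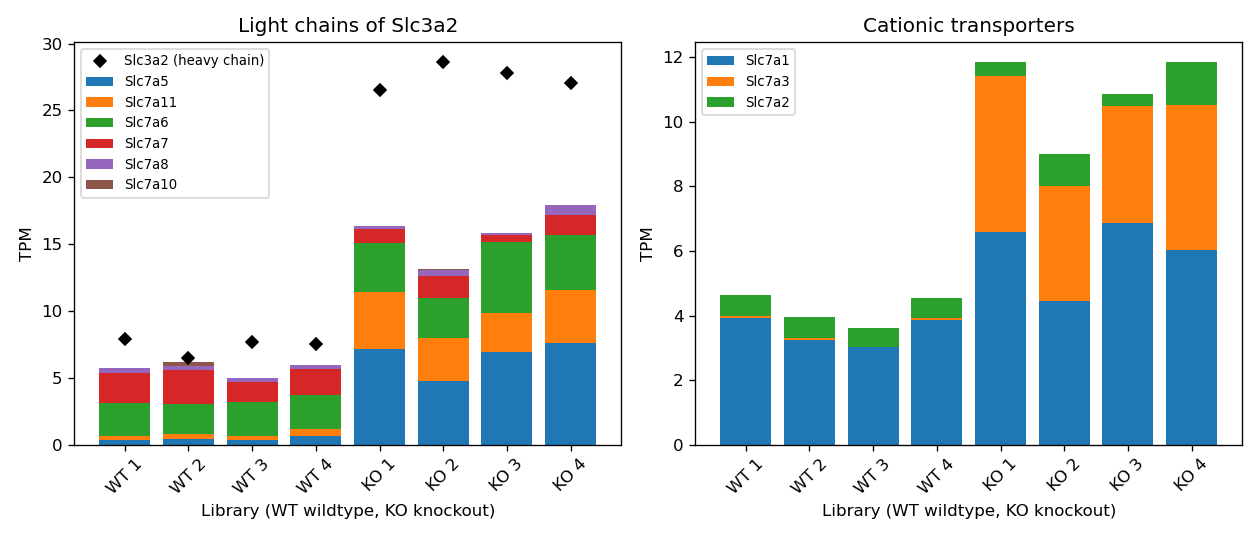
TPM of the light chains of Slc3a2 (left, stacked bars, with Slc3a2 as diamonds) and of the cationic transporters (right, stacked bars) in each of the 8 libraries. Slc7a5 and Slc7a11 fill most of the added height in the knockout on the left, and Slc7a3, at 33.2% to 40.9% of the stack, on the right.

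Slc38a2, Slc1a4 and Slc1a5 encode carriers of neutral amino acids that depend on sodium. Slc38a2 (chromosome 15 from 96687392 to 96699730, minus strand) is SNAT2, which takes up glutamine, alanine and other small neutral amino acids. It had the highest counts of the 10 in both groups. Normalised counts were 3416, 3405, 3224 and 3002 in the wildtype and 7532, 5334, 7426 and 6050 in the knockout, without overlap, and the log2 fold change was 1.01 (SE 0.132).

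Slc1a4 (chromosome 11 from 20302180 to 20332713, minus strand) is ASCT1, which carries alanine, serine, cysteine and threonine. Its counts were 40.3, 36.8, 50.4 and 49.1 in the wildtype and 371, 413, 306 and 384 in the knockout. The groups did not overlap, and the log2 fold change was 3.05 (SE 0.184). Knockout replicate 3, the highest library for Slc7a1 and Slc7a6, was the lowest for Slc1a4.

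Slc1a5 (chromosome 7 from 16781340 to 16798274, plus strand) is ASCT2, an exchanger of glutamine and other neutral amino acids and the closest relative of Slc1a4. Its counts were 301, 258, 278 and 298 in the wildtype and 298, 426, 399 and 386 in the knockout. Knockout replicate 1 lay inside the wildtype range, so the groups overlapped, and the log2 fold change of 0.41 (SE 0.145) was the smallest of the 10. It was 0.12 with total-count scaling and 0.84 with totals taken without mitochondrial rRNA. Besides total-count scaling, the threshold was not passed with the replicate block (0.40), without both knockout replicates 2 and 4 (0.30), without knockout replicate 2 (0.35) or 4 (0.40) alone, and without wildtype replicate 2 (0.37) or 3 (0.40). As a share of the TPM of Slc1a4 and Slc1a5 together, Slc1a4 held 7.68% ± 1.03 in the wildtype and 34.4% ± 4.44 in the knockout (SD, n = 4 each).

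Slc6a9 (chromosome 4 from 117834506 to 117875198, plus strand) is GlyT1, a carrier of glycine that depends on sodium and chloride. Its counts were 63, 20.5, 23.6 and 35.4 in the wildtype and 300, 178, 338 and 388 in the knockout. The groups did not overlap, but both were spread out, with the highest library 3.07 times the lowest in the wildtype and 2.18 times in the knockout. Raw counts were more even, with 39, 25, 32 and 39 in the wildtype and 312, 189, 315 and 334 in the knockout, while the effective length that normalised counts are divided by ran from 1656 to 2982 bases in the wildtype. Its log2 fold change came to 3.13 (SE 0.342).

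The order of the genes by TPM changed between the groups. In the wildtype Slc38a2 led with 20.2 ± 1.56 TPM, followed by Slc3a2 with 7.4 ± 0.642, Slc1a5 with 3.97 ± 0.274, Slc7a1 with 3.52 ± 0.45 and Slc7a6 with 2.45 ± 0.157 (SD, n = 4 each). Slc7a5, Slc6a9, Slc7a11 and Slc1a4 lay together between 0.33 and 0.45 TPM, and Slc7a3 was last with 0.0475 ± 0.0287 TPM. Neighbours overlapped in their libraries from Slc7a5 to Slc1a4 and between Slc1a5 and Slc7a1. In the knockout Slc38a2 with 36.9 ± 4.18 TPM and Slc3a2 with 27.5 ± 0.934 TPM (SD, n = 4 each) stayed in front. Slc7a5 came next with 6.64 ± 1.26 TPM, and every further neighbour down to Slc1a4 with 2.51 ± 0.446 TPM overlapped with the next. Summed over the 10 genes, TPM was 39.1 ± 1.76 in the wildtype and 99.1 ± 6.71 in the knockout (SD, n = 4 each). Rescaled to nuclear records, which takes mitochondrial RNA out of the total, the sums were 68.7 ± 3.9 and 234.5 ± 18.7. As a share of the TPM of all 59 amino acid transporters looked up, the 10 genes held 25.7% ± 0.491 and 48.8% ± 2.38.

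The knockout libraries did not rank alike in all genes. Knockout replicate 2 was the lowest of the 4 in 7 of the 10 genes and the highest in Slc1a4 and Slc1a5, and replicate 3 was the highest in 4. Replicates 2 and 4, which held the most macrophage and fibroblast marker RNA, were the highest in 3 of the 10 genes. Without both of them the median log2 fold change of the 10 genes was 2.52, as compared with 2.54. Genes outside all lists whose course over the 8 libraries was nearest to the median of the 10 were Fhl1, a LIM domain protein of muscle, Atf5, a transcription factor related to ATF4, Fam129a, Pck2, the mitochondrial phosphoenolpyruvate carboxykinase, and Ccn2, a secreted matrix protein. Their root mean square distances on the log2 scale were 0.133, 0.191, 0.193, 0.198 and 0.21, among 10381 genes that averaged 100 normalised counts or more. Each course was centred on its wildtype mean, so the distance mainly picks genes with a fold change near the median of the 10. The log2 fold changes of these genes lay between 2.33 and 2.62, and shared regulation was not tested.

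The remaining amino acid transporters were compared next, to see how far the members stand for their class. They comprised 49 genes, which were further carriers of the same families, carriers of the SLC36 and SLC43 families, Slc16a10, vesicular carriers, the heavy chain Slc3a1 and the lysosomal carriers Ctns and Slc66a1. DESeq2 gave an adjusted p for 33 of them, and 4 of the other 16 had no count in any library. Of the 33, 8 were higher and 5 lower in the knockout (DESeq2, adjusted p under 0.05), or 24.2% and 15.2%, where among all records 18.2% were higher and 15.5% lower. The median log2 fold change of the 33 was 0.03, as compared with 0.01 over all tested records. Among 193 other protein-coding Slc genes with an adjusted p, most of which carry other substrates, 34 were higher (17.6%) and 34 lower (17.6%), 35.2% in either direction. The mitochondrial carriers of the Slc25 family were left out of this list. With total-count scaling the split of the 33 became 6 higher and 8 lower, and with totals taken without mitochondrial rRNA it became 14 higher and 2 lower. Among all records the split of 3628 higher and 3100 lower became 1924 and 5912 with the first and 7917 and 1103 with the second. These scalings moved the median of all genes by -0.30 and 0.43 on the log2 scale, and relative to that median the 10 listed genes had a median of 2.52, 2.53 and 2.53 with the main scaling, the first and the second. Since a scaling shifts all genes by nearly the same amount, these relative values had to be alike, and nothing is read from that.

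**Figure D4:**
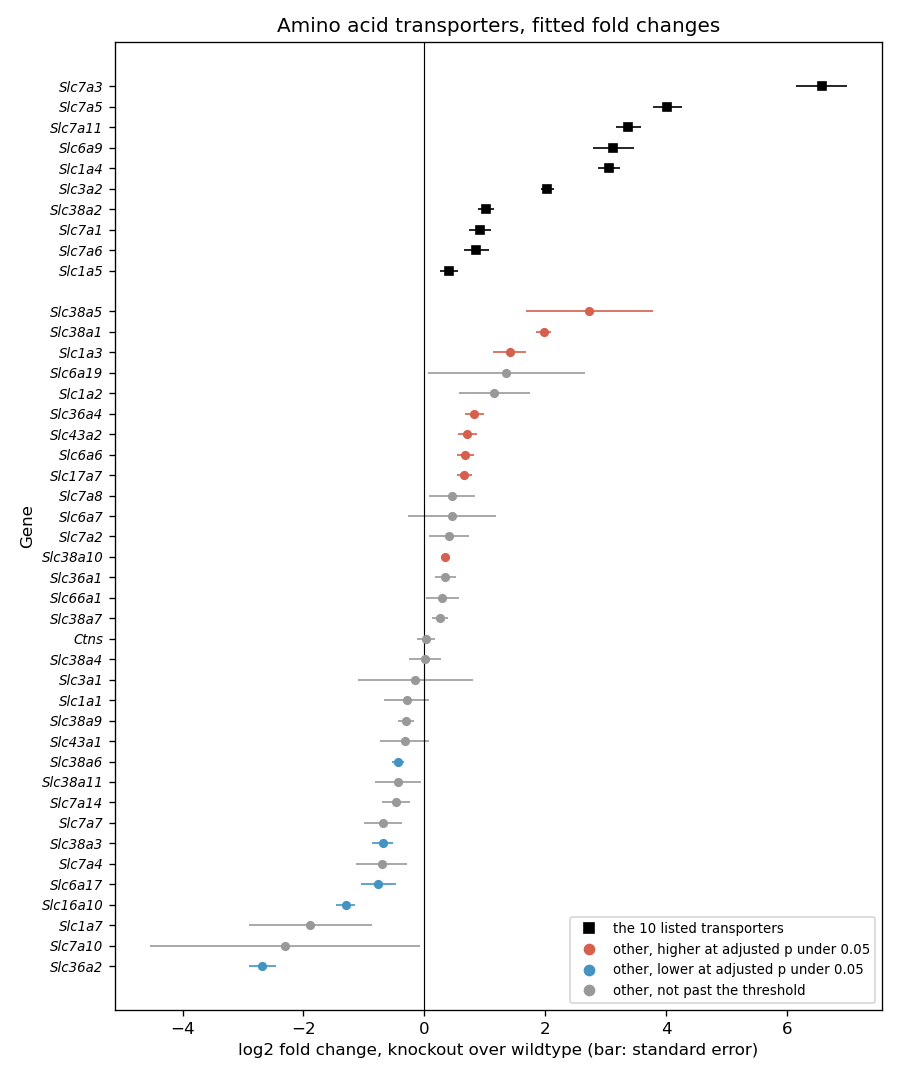
Fitted log2 fold changes, knockout over wildtype, of the 10 listed transporters (black squares) and of the 33 other amino acid transporters with an adjusted p (circles, red for higher, blue for lower, grey for not past the threshold), with bars for the standard error. The listed genes lie between 0.41 and 6.57, while the others lie on both sides of 0, with 8 called higher and 5 called lower.

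The clearest rise among the others was that of Slc38a1 (SNAT1), a glutamine carrier related to Slc38a2. Its normalised counts were 293, 292, 343 and 338 in the wildtype and 1371, 1084, 1170 and 1350 in the knockout. The groups were far apart, and the log2 fold change was 1.97 (SE 0.126, DESeq2, adjusted p = 7.06e-53). Slc1a3, the glutamate carrier GLAST, rose by 1.41 (SE 0.275), from 42 ± 9.6 to 110 ± 31.6 normalised counts (SD, n = 4; DESeq2, adjusted p = 2.87e-06).

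Smaller rises were found for Slc36a4 (0.83), a carrier of proline and tryptophan, and for Slc43a2 (0.71), a carrier of large neutral amino acids. Slc6a6 (0.68), which takes up taurine, the vesicular glutamate carrier Slc17a7 (0.66) and Slc38a10 (0.35) rose as well, and the groups did not overlap in any of these genes. Taurine is an amino sulphonic acid that heart muscle accumulates, and Slc6a6 was among the most abundant of the class in the wildtype, with 16.2 TPM. The rise of Slc38a10 was lost with total-count scaling (log2 fold change 0.06, DESeq2, adjusted p = 0.723). Slc38a5, named after its values were seen because it completes the 8, had 0.944, 2.59, 0.773 and 2.15 normalised counts in the wildtype and 0, 17.5, 20.5 and 5.58 in the knockout (log2 fold change 2.73, SE 1.05). Its higher values were those of knockout replicates 2 and 3, the libraries with the largest erythroid marker sums, whose part in them was not tested. This call was absent in 11 of 16 alternatives, among them the fits without knockout replicate 2 (2.44) or 3 (2.16) and without wildtype replicate 1 (2.55), 3 (2.49) or 4 (2.91).

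The largest fall among the 5 was that of Slc36a2 (PAT2), a proton-coupled carrier of glycine, proline and alanine. Its normalised counts were 380, 397, 313 and 406 in the wildtype and 87.7, 47.7, 42.1 and 55.7 in the knockout. The groups were far apart, and the log2 fold change was -2.68 (SE 0.222, DESeq2, adjusted p = 1.23e-31). Slc16a10 (TAT1), which carries aromatic amino acids, fell from 494 ± 49.1 to 201 ± 38.5 normalised counts (SD, n = 4), a log2 difference of -1.30 (SE 0.161, DESeq2, adjusted p = 1.89e-14).

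Slc38a3 (SNAT3), a glutamine carrier, had -0.69 and Slc38a6, whose substrates are less well known, -0.44, and these were the most abundant of the other transporters in the wildtype with 18.1 and 30.8 TPM. Both calls were lost with totals taken without mitochondrial rRNA, where the values were -0.28 and -0.01. Slc6a17 had -0.76 with overlapping groups, and its call was lost in 7 of 16 alternatives. Among these were the fits without knockout replicate 3 (-0.59) or 4 (-0.69) and without wildtype replicate 1 (-0.79), 2 (-0.76) or 3 (-0.64). Of the 9 other SNAT genes tested, 3 were called higher and 2 lower, where 18.2% and 15.5% of all records were, and of these 5 calls that of Slc38a1 was kept in all 16 alternatives.

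None of the 3 other cationic carriers tested passed the threshold with the main scaling, and none of 4 light and heavy chain genes, Slc3a1 included. Among all records 33.7% passed it in either direction, so little can be read from so few genes. Slc7a2 was called higher with totals taken without mitochondrial rRNA (log2 fold change 0.85, DESeq2, adjusted p = 0.0377). Slc7a14, of the same family, was called lower with total-count scaling (-0.77, DESeq2, adjusted p = 0.00245) and without knockout replicate 3 (-0.61, DESeq2, adjusted p = 0.0464). Slc7a2 (CAT2), a further carrier of arginine and lysine, had counts of 129, 123, 114 and 129 in the wildtype and 92.7, 205, 92.1 and 264 in the knockout (DESeq2, adjusted p = 0.373). Its high values were those of knockout replicates 2 and 4, the libraries with the most macrophage marker RNA, whose part in them was not tested. The light chain Slc7a7 had 117, 130, 75.3 and 102 in the wildtype and 61, 93.8, 30.1 and 78.9 in the knockout (log2 fold change -0.68, DESeq2, adjusted p = 0.0837). It was called lower in some alternatives, with -1.17 without knockout replicates 2 and 4 (DESeq2, adjusted p = 0.00892), -0.87 without knockout replicate 2 alone (adjusted p = 0.0316) and -0.95 with total-count scaling (adjusted p = 0.0167).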

How the data were processed

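RNA from 4 control and 4 knockout hearts was depleted of cytoplasmic rRNA, primed with random hexamers and sequenced as stranded pairs. The authors aligned the reads with RSEM 1.2.31 and bowtie2 to GENCODE transcripts with custom mitochondrial sequences (mm10), and deposited for each library the expected count, the TPM and the effective length of every gene. Expected counts were rounded here. Fold changes were fitted on all records with DESeq2 1.42.0 in R 4.3.3 (Wald test, effective lengths as an offset, Benjamini-Hochberg adjustment, threshold 0.05), after the authors' approach. edgeR 4.0.16, other scalings, a filter of at least 10 counts in 4 libraries, a replicate block and left-out libraries were alternatives, and the code was tested on simulated data. Symbols and positions came from GENCODE and promoters from RefSeq. The members and all lists were chosen with earlier results of these data known. Other transporters were named where they passed the threshold and averaged 20 normalised counts or more (at most 8 each way), or were among the 5 most abundant in the wildtype. Slc38a5, Slc7a2, Slc7a7, Slc7a14 and genes called in alternatives alone were named after their values were seen. The authors' comparison table (fold changes and p-values) and a table with 8 value columns that matched no sample label were not used. Intervals cover counting error only. Replicates of a group are separate animals and differed by more than counting noise. Chi-square per degree of freedom was 4.65 to 10.0 for pairs of wildtype libraries and 14.7 to 52.9 for pairs of knockout libraries. Same-numbered libraries were not treated as pairs.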

Additional observations from a re-analysis of the deposited data

Results flagged for a closer look

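In 10 of 80 groups of 4 libraries 1 library stood apart from the other 3 by Dixon's criterion, which chance alone meets in about 1 in 20 groups. Several of the groups share the same counts and are not independent, so that their number was not compared with chance. Knockout replicate 2 had the lowest Lrpprc, with 504 normalised counts as against 597 to 605. It also had the lowest TPM summed over the 10 transporters, 89.1 as against 102 to 103, and 206 as against 243 to 245 when rescaled to nuclear records. Its ratio of Slc3a2 to Slc7a5, Slc7a6 and Slc7a11 was 2.62, as against 1.72 to 1.84. Its share of Slc7a10 among the light chains was 0.38%, where the other knockout libraries had 0, and it rests on 3 counts. Wildtype replicate 2 had 5.02% for the same share as against 0 to 0.168%, and 415 normalised counts of Slc3a2 as against 496 to 503. In knockout replicate 3 Slc7a6 held 33.7% of the light chains as against 22.3% to 23.1%. In wildtype replicate 4 Slc7a11 held 8.38% as against 5.82% to 6.1%. Wildtype replicate 1 had a summed TPM of 41.8 as against 38.1 to 38.5.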

How the results depend on the processing

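With total-count scaling 1924 records were higher and 5912 lower, other amino acid transporters split into 6 and 8 and other Slc genes into 20 and 59, and the median log2 fold change of the 10 transporters was 2.25. With totals taken without mitochondrial rRNA the values were 7917 and 1103, 14 and 2, 77 and 12, and 2.97. Without knockout replicates 2 and 4, an alternative chosen after seeing the data, 22 other Slc genes were higher and 24 lower, and over all records 2659 were higher and 2077 lower. The difference in the ratio of Slc3a2 to light chains, 0.459 in TPM, reversed to -0.236 with expected counts and to -0.285 with the listed light chains alone, and the difference in the Slc7a3 share fell to 18.4 percentage points with expected counts. Expected counts are not divided by length, and mean effective lengths were 1952 and 2114 bases for Slc7a3 and 5926 and 5748 bases for Slc7a1 (wildtype and knockout). The listed light chains leave out Slc7a7, which held 35.4% of the pool in the wildtype and 7.67% in the knockout. How far these account for the changes was not tested. Leaving out single libraries gave -2.70 to -2.60 for Lrpprc, 5528 to 6969 called records (3025 to 3704 higher, 2493 to 3265 lower), 7 to 9 higher and 4 to 6 lower other amino acid transporters, 25 to 37 and 26 to 32 other Slc genes, a median of 2.45 to 2.58, a ratio difference of 0.321 to 0.545 and a share difference of 35.8 to 38.4 points. With the replicate number as a block 5496 records were called, other amino acid transporters split into 7 and 5 (Slc7a7 was called, Slc38a5 and Slc6a17 were not), the listed Slc1a5 no longer passed the threshold, and the median was 2.54. Same-numbered libraries correlated with r of -0.0735 to 0.0723, and 1 of 4 wildtype libraries was closest to its own number. Of the 13 calls among the other amino acid transporters 8 were kept in all 16 alternatives. In at least 1 alternative Slc7a7, Slc7a14 and Slc38a9 were called lower and Slc7a2, Slc38a7, Slc1a2, Slc36a1, Ctns and Slc66a1 higher. Among the 10 transporters depth limits Slc7a3 in the wildtype most, with 15 counts in 4 libraries.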
